A study of Mus musculus with 2 samples.

Results

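The genes described here carry, in the deposited table, a name ending in Rik, the provisional symbol that the RIKEN full-length cDNA project gave to mouse transcripts not yet assigned a gene name. Of the 30385 entries of the table, 1614 had such a name once a trailing chromosome suffix was removed, and 417 of these reached 50 reads in whichever library had more. The other 1197 were under that minimum, 576 of them with 0 reads in both libraries. The 417 entries held 415 names, since 4 entries carried a suffix for their position. They made up 4.39% of the 9507 entries of any name that met the same minimum, which are called measured below. Among RIKEN-named entries 25.8% were measured, against 31.6% of the other entries. The genes were thus chosen by their name and by their read counts in the same 2 libraries that are compared below, so the minimum shaped which genes could appear, and all comparisons are descriptions. Just inside the minimum were 1700029I01Rik with 49 reads in MHC403 and 50 in WT, 2010109K11Rik with 50 and 49, and 2610027L16Rik with 50 and 28. Just outside it were 1110008J03Rik with 41 and 49 reads, 6230427J02Rik with 49 and 11, and C430048L16Rik with 49 and 25.

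The study sequenced the 5′ ends of polyA RNA from mouse hearts, with 1 library for each genotype, wild-type (WT) and MHC403/+. MHC403/+ mice carry a missense mutation in 1 allele of the cardiac myosin heavy chain gene and are a model of hypertrophic cardiomyopathy, in which the heart muscle thickens. Both groups were of the 129/SvEv strain, aged 8 to 16 weeks, and both were given CsA (cyclosporine A, which blocks the phosphatase calcineurin) by subcutaneous injection at 15 mg/kg, 2 times a day for 2 weeks. Hearts were pooled before sequencing, and how many animals made up a pool is not given in the sources. With 1 pooled library for each genotype there was no replicate, no test was possible, and no p-value is given. No library came from mice without CsA, so genotype and a genotype-specific response to the drug cannot be told apart. The MHC403 library held 5468677 listed reads and the WT library 5481123, a difference of 0.227%. Each ratio is that of MHC403 to WT, with reads scaled to these totals. Ranges in parentheses are exact (Clopper-Pearson) 95% counting intervals, which cover counting error only. At 50 reads in each library such an interval runs from 0.664 to 1.51.

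A RIKEN symbol says that a cDNA was sequenced, not what it encodes. Many such cDNAs were later found to encode small mitochondrial or membrane proteins that gene finders overlook because their reading frames are short, or subunits of large complexes that were first purified in other species. Others are long non-coding RNAs (lncRNAs). Some lncRNAs serve mainly as carriers of small nucleolar RNAs (snoRNAs), which lie in their introns and guide the chemical modification of ribosomal RNA, and others carry microRNAs (miRNAs), which repress messenger RNAs that match their seed, bases 2 to 8.

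The name no longer means that a gene is uncharacterised. Of the 417 entries, 409 matched a gene in RefSeq (GRCm38.p6), and 291 of these now have another symbol while 118 are still RIKEN-named. RefSeq lists 349 of the matched genes as protein coding, 51 as lncRNA, and the other 9 as pseudogenes. In the table's own description column, 122 entries had a functional or homology description. Another 178 were called hypothetical proteins, 24 uncharacterized or new proteins, and 93 had only the title of a cDNA clone or transcript. Present-day symbols are given below in parentheses.

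Promoter sequence was available in RefSeq (GRCm38.p6) for 353 of the genes, as 250 bases before to 50 after the annotated start. Sequences of 6 are printed because they stand for the patterns described below: the gene with the highest ratio (2200002D01Rik), the pair of snoRNA carriers with the most reads (2410006H16Rik and Zfas1), a membrane protein gene with one of the lowest ratios (Smco1), the lncRNA with the most reads (Mhrt) and the respiratory chain factor with the most reads in WT (Fmc1). Each runs 5′ to 3′ on the strand of the gene, and capitals mark matches to motifs searched on both strands, overlaps allowed.
2200002D01Rik, chr7:29248418-29248717, minus strand: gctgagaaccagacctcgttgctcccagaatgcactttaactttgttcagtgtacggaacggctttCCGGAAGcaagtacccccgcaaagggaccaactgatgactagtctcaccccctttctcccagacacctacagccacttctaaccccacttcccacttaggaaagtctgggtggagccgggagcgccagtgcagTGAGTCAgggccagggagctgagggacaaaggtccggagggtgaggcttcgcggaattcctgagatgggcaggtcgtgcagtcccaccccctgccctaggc
2410006H16Rik, chr11:62602627-62602926, plus strand: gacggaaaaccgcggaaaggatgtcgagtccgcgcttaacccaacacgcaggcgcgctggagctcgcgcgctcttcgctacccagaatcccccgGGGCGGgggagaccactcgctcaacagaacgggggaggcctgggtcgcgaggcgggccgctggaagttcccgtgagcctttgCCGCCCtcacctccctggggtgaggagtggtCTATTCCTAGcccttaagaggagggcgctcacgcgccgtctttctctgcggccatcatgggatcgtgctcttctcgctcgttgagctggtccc
1500012F01Rik (Zfas1), chr2:167062684-167062983, plus strand: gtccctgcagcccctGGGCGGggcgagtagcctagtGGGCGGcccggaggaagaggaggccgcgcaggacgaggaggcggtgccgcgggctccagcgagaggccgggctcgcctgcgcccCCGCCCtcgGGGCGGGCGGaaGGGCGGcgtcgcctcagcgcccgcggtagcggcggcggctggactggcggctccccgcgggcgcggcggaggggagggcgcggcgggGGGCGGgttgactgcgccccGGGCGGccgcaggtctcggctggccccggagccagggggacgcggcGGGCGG
2310010M20Rik (Smco1), chr16:32271230-32271529, plus strand: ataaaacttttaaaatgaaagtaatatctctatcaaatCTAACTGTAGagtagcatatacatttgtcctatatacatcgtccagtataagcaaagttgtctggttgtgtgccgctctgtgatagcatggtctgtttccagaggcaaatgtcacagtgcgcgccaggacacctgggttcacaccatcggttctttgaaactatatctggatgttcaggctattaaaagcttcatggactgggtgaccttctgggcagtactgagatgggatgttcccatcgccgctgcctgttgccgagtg
D830015G02Rik (Mhrt), chr14:54968537-54968836, plus strand: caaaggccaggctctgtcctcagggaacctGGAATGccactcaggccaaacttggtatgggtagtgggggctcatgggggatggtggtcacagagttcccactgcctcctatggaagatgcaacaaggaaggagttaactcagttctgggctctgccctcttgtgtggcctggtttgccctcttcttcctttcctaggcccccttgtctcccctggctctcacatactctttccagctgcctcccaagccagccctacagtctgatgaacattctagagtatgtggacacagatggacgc
1110001J03Rik (Fmc1), chr6:38534611-38534910, plus strand: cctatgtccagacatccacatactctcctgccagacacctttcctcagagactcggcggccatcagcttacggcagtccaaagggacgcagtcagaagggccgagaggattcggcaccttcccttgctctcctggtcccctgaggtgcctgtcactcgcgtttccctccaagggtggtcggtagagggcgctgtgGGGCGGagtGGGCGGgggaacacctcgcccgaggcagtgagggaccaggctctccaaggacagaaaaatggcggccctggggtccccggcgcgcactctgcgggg
The capitals are AP-1 (TGANTCA) and ETS (CCGGAAG) matches in 2200002D01Rik, GC boxes (GGGCGG) in 2410006H16Rik, Zfas1 and Fmc1, loose MEF2 forms (CTA and TAG, 4 bases apart) in Smco1 and 2410006H16Rik, and a TEAD core (GGAATG) in Mhrt. A match describes the letters and is not a known binding site. Coordinates of these promoters are on GRCm38.p6, while positions from the table, used everywhere else, are on mm9.

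Across the 353 promoters the GC box, the motif of Sp1-type factors, occurred in 69.1%, against 35.9% of all 27025 RefSeq promoters. The ETS motif occurred in 24.4% against 9.12%, and the YY1 motif (AAGATGGCG) in 5.67% against 1.5%. The TATA box (TATAAA) was in 6.80% against 14.2%, and the AP-1 motif in 3.12% against 7.93%. The CCAAT box (CCAAT) and the TEAD core were at similar shares in members and in all promoters, 34.0% against 37.9% and 14.2% against 14.6%. The CRE (TGACGTCA) was in 3.97% against 1.88%, the palindromic NRF1 motif in 3.12% against 0.977%, the loose MEF2 form in 4.25% against 3.70%, and the ERR motif (TCAAGGTCA) in 0 against 0.407%. The median GC content was 61.7% against 52.7%. All RefSeq promoters include those of genes without reads in these hearts, so these shares were not compared at matched expression. Within the members, a GC box was in 59 of 75 promoters (78.7%) of genes at least 2-fold higher in MHC403, in 5 of 15 (33.3%) of genes at least 2-fold lower, and in 68.4% of the rest. Median GC content in these groups was 62.7%, 55.3% and 61.7%, and the GC box shares were not adjusted for it. The ETS motif went the other way, in 16%, 33.3% and 26.2%. A link of motif and direction was not tested.

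Reads of the 417 genes summed to 113346 in the MHC403 library and 97560 in the WT library, which is 2.07% and 1.78% of all listed reads. All 417 genes had reads in both libraries. Their depth was low: 22 genes reached 1000 reads in 1 or both libraries, 239 had at least 100 but fewer, and 156 had under 100. The median was 130 reads, against 162 over all measured entries. The 10 genes with the most reads held 32.6% of the members' reads.

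Of the 417 genes, 90 (21.6%) were higher in MHC403 by 2-fold or more, 17 (4.08%) were at least 2-fold lower, and 310 lay within 2-fold. Over all 9507 measured entries the same shares were 26.1% and 2.43%. The median log2 ratio of the RIKEN-named genes was 0.48 (1.39-fold higher), and that of all measured entries was 0.57 (1.48-fold). The counting interval lay wholly above 1 for 236 genes (56.6%, against 63.2% of all) and wholly below 1 for 51 (12.2%, against 10.3%). At 4-fold, 15 genes were higher (3.60%, against 5.80%) and 4 were lower (0.959%, against 0.326%). Against the background, a smaller share of the RIKEN-named genes was higher and a larger share was lower, and the difference of the medians was -0.09 on the log2 scale. With a minimum of 200 reads the order of the lower shares turned, with 2.11% of the RIKEN-named genes against 2.50% of all entries. The plot of the ratio distributions shows the members' curve displaced slightly to the left of that of all entries.

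**Figure D1:**
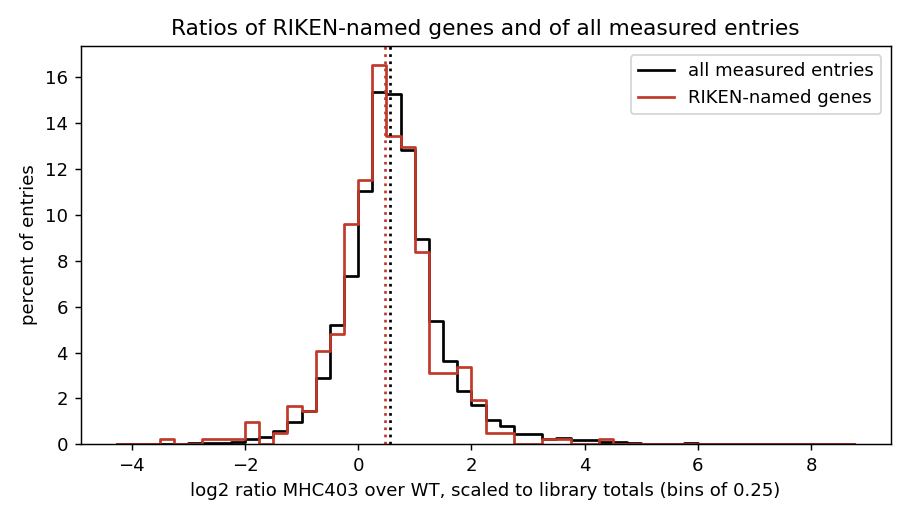
Percent of entries (vertical axis) in bins of 0.25 of the log2 ratio MHC403 over WT (horizontal axis, scaled to library totals), for the 417 RIKEN-named genes (red) and all 9507 measured entries (black); dotted lines are the medians, 0.48 and 0.57. Both curves peak above 0, and the curve of the RIKEN-named genes lies slightly to the left.

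The split between higher and lower depended on the scaling. Median-of-ratios scaling, which centres the ratios of all expressed genes, lowers every log2 ratio by 0.55. With it 40 genes (9.59%, against 10.9% of all measured entries) were at least 2-fold higher and 43 (10.3%, against 7.59%) at least 2-fold lower. Higher genes thus made up 84.1% of the RIKEN-named genes past 2-fold by library totals, and 48.2% after median-of-ratios scaling. Differences between genes do not move with the scaling, so values below are read against the median of 0.57.

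**Figure D2:**
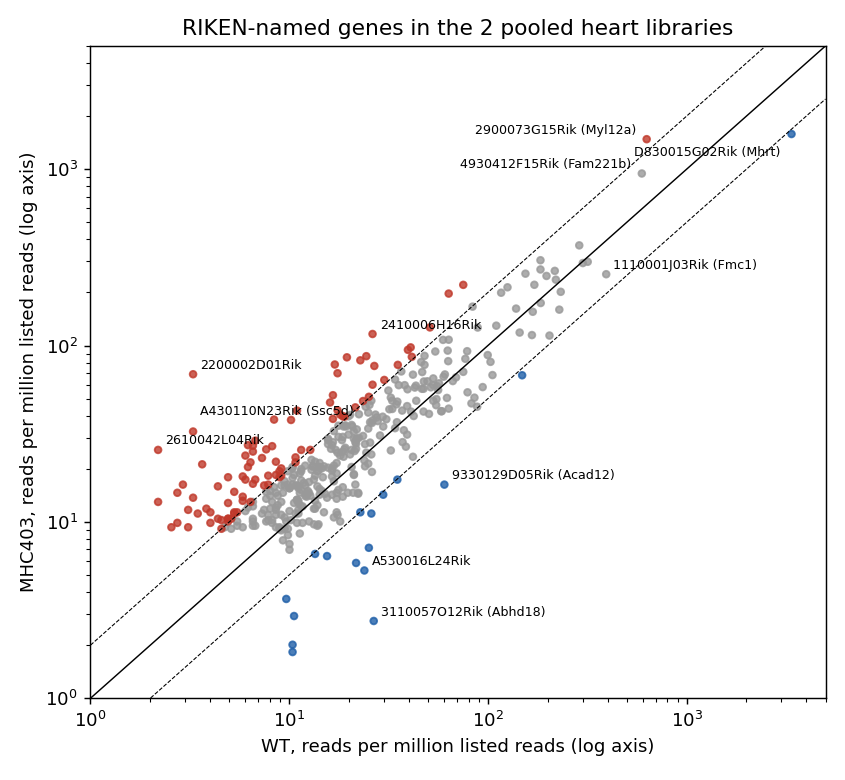
RPM (reads scaled to 1000000 listed reads) in WT (horizontal log axis) and MHC403 (vertical log axis), 1 point for each of the 417 RIKEN-named genes; the solid line is a ratio of 1 and dashed lines are 2-fold. Red points are at least 2-fold higher and blue points at least 2-fold lower in MHC403, and 2200002D01Rik lies farthest above the line.

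The highest ratio was that of 2200002D01Rik (chromosome 7, 30032540 to 30033486), which the table describes as an HAI-2 related small protein. It had 376 reads in MHC403 and 18 in WT, so it was 20.9-fold (13.1 to 35.7) higher. A430110N23Rik (Ssc5d; chromosome 7, 4877446 to 4896399) encodes a secreted scavenger receptor with cysteine-rich domains. It had 178 reads against 18, 9.91-fold (6.09 to 17.1) higher. For both genes all but a small part of the reads came from the MHC403 library. Both, like 2610042L04Rik below, met the minimum through MHC403 alone, so an excess was built into their selection. Neither overlapped another entry of the table.

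2610042L04Rik (chromosome 14, 3518338 to 4306876) had 140 reads in MHC403 and 12 in WT, 11.7-fold (6.49 to 23.2) higher, but its value cannot be assigned to 1 gene. Of the 36-base words in its transcripts 80.2% also occur in transcripts of other genes, and its windows overlap Gm2897, which had 137 reads against 8. How reads with several matches were counted is not given in the sources.

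1810055G02Rik (chromosome 19, 3708333 to 3717881), described as a hypothetical protein precursor, had 71 reads against 12 and was 5.93-fold (3.19 to 12) higher. 2010002N04Rik (Smim3; chromosome 18, 60633845 to 60661637), a small integral membrane protein, had 116 reads against 20 and was 5.81-fold (3.60 to 9.87) higher. 1500002O20Rik (Smg9; chromosome 7, 25184647 to 25207796) encodes a subunit of the kinase complex of nonsense-mediated mRNA decay. It had 89 reads against 16, 5.58-fold (3.25 to 10.2) higher. These 3 genes had at most 20 reads in WT, and their wide intervals reflect that. Like Tmem252, Akip1 and Proser2 below, they met the minimum through MHC403 alone, so an excess was built into their selection. 2010111I01Rik (Aopep), an aminopeptidase gene, had 469 reads against 107 and was 4.39-fold (3.55 to 5.47) higher. E030010A14Rik (Tmem252), a transmembrane protein, had 149 against 34, with the same point estimate of 4.39-fold (3.01 to 6.58). D930014E17Rik (Akip1), which binds the catalytic subunit of protein kinase A, had 119 against 35 and was 3.41-fold (2.32 to 5.12) higher. 5430407P10Rik (Proser2), chosen after its values were seen because it is among the 15 genes past 4-fold, had 158 against 37 and was 4.28-fold higher.

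2900002K06Rik (Rbm3os; chromosome X, 7722553 to 7725089) is an lncRNA that starts 376 bases from the start of Rbm3, a cold-inducible RNA-binding protein. It had 427 reads in MHC403 and 93 in WT, 4.6-fold (3.67 to 5.82) higher, and Rbm3 had 1295 against 296, 4.38-fold (3.86 to 4.99) higher. The start of Rbm3 (7722928) lies within the Rbm3os entry, so without strand the 5′ reads of the pair cannot be told apart. 1700088E04Rik (chromosome 15, 78965085 to 78971681) did not match its neighbour. It had 80 reads against 15, 5.35-fold (3.06 to 9.99) higher, while Polr2f, an RNA polymerase subunit gene that starts 115 bases away on the other strand, had 601 against 710. 1700088E04Rik met the minimum through MHC403 alone. Over all members, 134 had the start of another entry on the opposite strand within 1000 bases, and 89 of these neighbours were measured. The ratios of gene and neighbour were on the same side of 1 in 68 of the 89. Most ratios of both kinds were above 1 (80.7% of measured entries and 76.0% of the members), and whether neighbours share a direction beyond that was not tested. The median of the 134 genes (log2 0.46) was close to that of the other 283 (0.49).

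The lowest ratio was that of 3110057O12Rik (Abhd18; chromosome 3, 40650878 to 40740229), which encodes a protein of the alpha/beta hydrolase family. It had 15 reads in MHC403 and 146 in WT, 9.71-fold (5.70 to 17.8) lower. Of its 36-base words 15.0% occur in other genes. Its neighbour on the other strand, Mfsd8, a lysosomal membrane protein that starts 101 bases away, had 47 against 44. The deficit was therefore not seen at the facing start. 2310010M20Rik (Smco1; chromosome 16, 32271695 to 32274865), a single-pass membrane protein with coiled coils, had 11 reads against 57 and was 5.17-fold (2.68 to 10.9) lower, with 14.5% of its words shared. A530016L24Rik (chromosome 12, 113727659 to 113738138), described as a transmembrane protein, had 29 against 131 and was 4.51-fold (3.0 to 6.99) lower. Abhd18, Smco1 and A530016L24Rik met the minimum through WT alone, so a deficit was built into their selection. 1810030N24Rik (Smim8; chromosome 4, 34715921 to 34725608), another small integral membrane protein, had 371 against 815 and was 2.19-fold (1.94 to 2.48) lower. Of the 17 genes at least 2-fold lower, Smim8 and Mhrt (below) were the only ones with over 300 reads in each library. Another of the 17, 2310046A06Rik (Mlip), encodes a protein that binds lamin A in muscle and had 95 reads against 192.

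**Figure D3:**
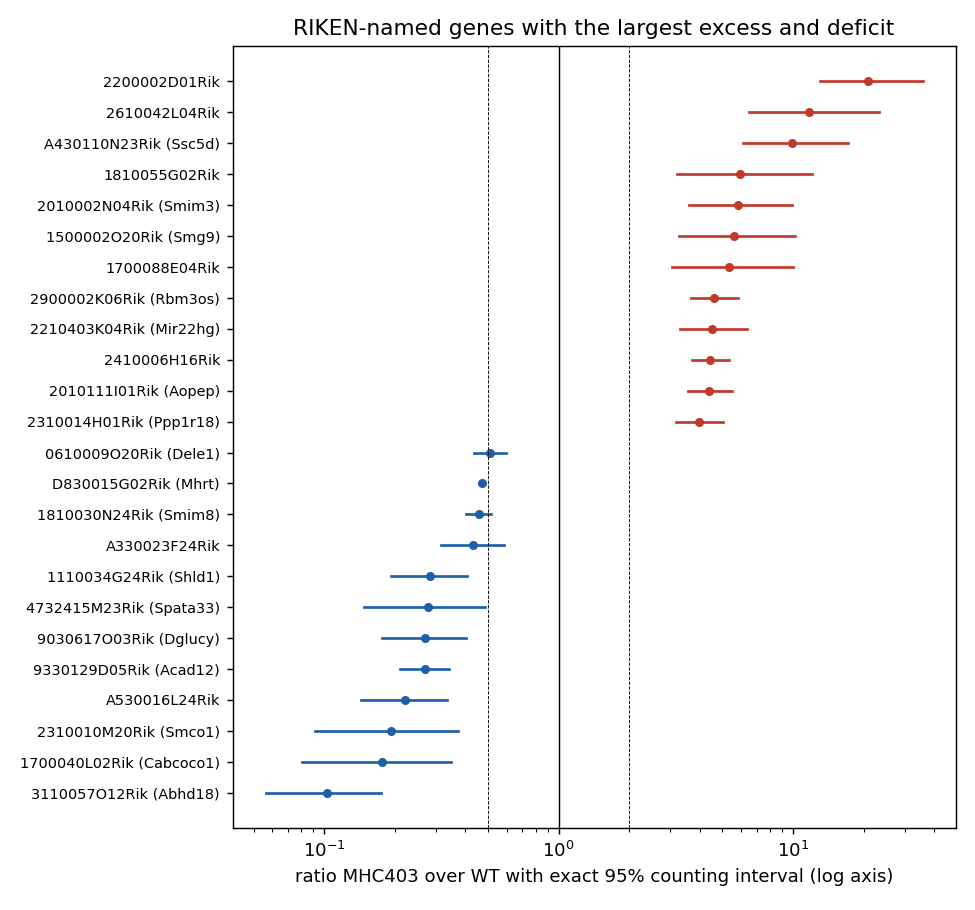
Ratio MHC403 over WT (log axis) with its exact 95% counting interval for the 12 higher and the 12 lower RIKEN-named genes whose interval lies farthest from 1; red is higher and blue lower, and dashed lines are 2-fold. Intervals are widest for genes with few reads, such as 2610042L04Rik with 12 reads in WT, and narrowest for Mhrt.

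Mhrt and Myl12a supplied a large part of the members' reads, and their ratios lay on opposite sides of 1. D830015G02Rik (Mhrt; chromosome 14, 55587624 to 55593186) is an lncRNA of the myosin heavy chain locus, transcribed on the strand opposite to Myh6 and Myh7. It had 8657 reads in MHC403 and 18482 in WT and was 2.13-fold (2.08 to 2.19) lower. Myh6, the gene of the adult myosin of the mouse ventricle, had 55171 against 132965 (2.40-fold lower, 2.38 to 2.43), and Myh7 had 23161 against 51258 (2.21-fold lower, 2.17 to 2.24). The Mhrt entry lies beside Myh6 and overlaps the 3′ part of the Myh7 entry. No source says whether the counting used strand, so reads of Mhrt and of Myh7 cannot be told apart where they overlap. The Myh6 entry does not overlap Mhrt. Sequence shared by Myh6 and Myh7 was not examined, so whether reads of 1 were assigned to the other is not known. The windows of Mhrt overlapped those of no other entry. 2900073G15Rik (Myl12a; chromosome 17, 71343133 to 71351873) encodes a regulatory light chain of non-muscle myosin. It had 8092 reads against 3451, 2.35-fold (2.26 to 2.45) higher. The near-identical Myl12b had 2065 against 957, and 17.3% of the 36-base words of Myl12a occur in other genes, so part of the reads could have been assigned to either.

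The other genes with the most reads lay closer to a ratio of 1. 4930412F15Rik (Fam221b) had 5171 reads in MHC403 and 3262 in WT, 1.59-fold (1.52 to 1.66) higher. 2310003F16Rik (Hypk), a regulator of the N-terminal acetyltransferase complex, had 2023 against 1580. C330021F23Rik, a ribosomal protein S23-like gene (Rps23rg1), had 2 entries on chromosome 8, with 1666 against 1008 reads and 1398 against 847, 1.66-fold (1.53 to 1.79) and 1.65-fold (1.52 to 1.80) higher. Ribosomal protein genes have many copies, so reads at either entry may come from another copy. 2900010J23Rik (Swi5), a recombination factor, had 1606 against 1647 reads, and C030046I01Rik (R3hdm4) had 1292 against 1205. Both intervals included 1 (Swi5 1.02-fold lower, 0.955 to 1.10, and R3hdm4 1.07-fold higher, 0.993 to 1.16). With median-of-ratios scaling all of these except Fam221b and Rps23rg1 lie below a ratio of 1.

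To describe the genes by function, 8 groups were drawn up from the present-day symbols. They were assembled with the values in view, so their counts are descriptions and support nothing. The groups differed in where their ratios lay.

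**Figure D4:**
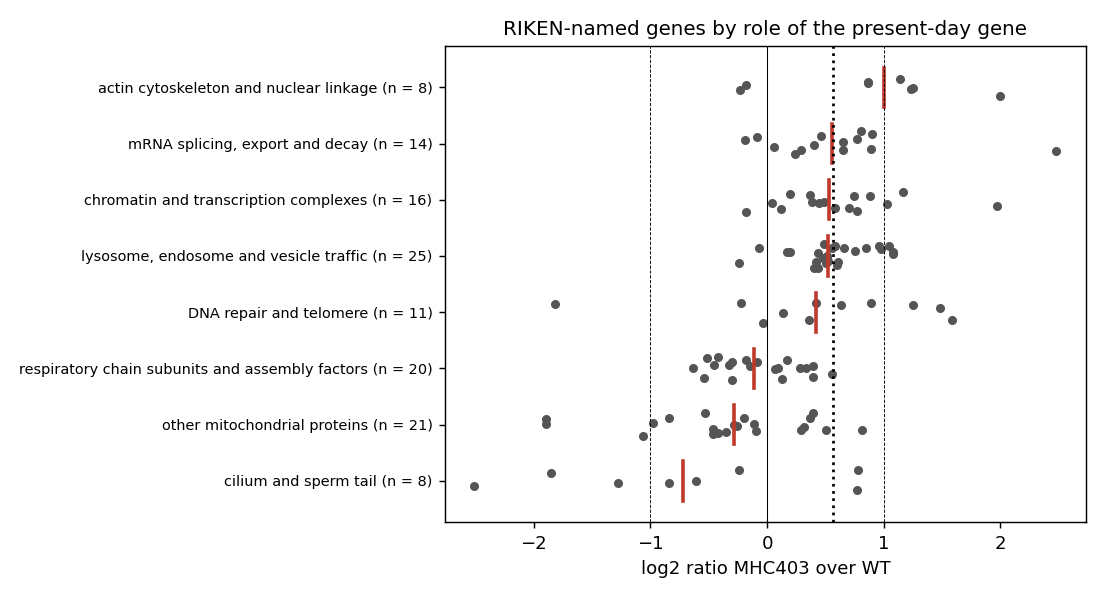
Log2 ratio MHC403 over WT (horizontal axis) of RIKEN-named genes in 8 groups by role, 1 point for each gene; red bars are group medians, the dotted line is the median of all measured entries (0.57) and dashed lines are 2-fold. Both mitochondrial groups and the cilium group have medians below 0, and the actin group has the highest median.

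Respiratory chain subunits and assembly factors had the narrowest range of the 8 groups. The respiratory chain consists of membrane complexes that pass electrons to oxygen and drive ATP synthesis, and each needs dedicated assembly factors. The group had 20 members, 7287 reads in MHC403 and 8142 in WT, and a median log2 ratio of -0.12. With library totals no member was past 2-fold in either direction, where 26.1% of all measured entries were higher and 2.43% lower. Median-of-ratios scaling put 4 of the 20 past 2-fold on the lower side (7.59% of all) and 0 on the higher side (10.9%). Log2 ratios ran from -0.63 to 0.55, so all 20 lay below the median of all measured entries. The interval was wholly below 1 for 7 members and wholly above 1 for 4. 1110001J03Rik (Fmc1), an assembly factor of ATP synthase, had 1388 reads against 2159 and was 1.55-fold (1.45 to 1.66) lower. 2010107E04Rik (Atp5mpl), a small subunit of ATP synthase, had 874 against 1254 and was 1.43-fold (1.31 to 1.56) lower. 1110058L19Rik (Sdhaf4), which assembles succinate dehydrogenase, had 297 against 433, 1.45-fold (1.25 to 1.69) lower. The related factor 0610038F07Rik (Sdhaf2) had 76 against 102, a log2 ratio of -0.42.

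Factors of complex I and of cytochrome oxidase lay on both sides of 0 on the log2 scale. For complex I, 1810043H04Rik (Ndufaf8) had 224 reads against 277, 2410091C18Rik (Ndufaf7) 75 against 85, and 2310003L22Rik (Ndufaf5) 67 against 64. For cytochrome oxidase, 1810013D10Rik (Smim20) had 232 against 319 and 2310061C15Rik (Cmc2) 171 against 215. The remaining cytochrome oxidase factors had ratios near or above 1, with 54 against 60 reads for 1810063B05Rik (Coa6) and 460 against 422 for 2310016M24Rik (Cox14). 2900053A13Rik (Pet100) had 317 against 283, and 6330578E17Rik (Coa5) 342 against 261. The highest ratio in the group was that of 2900010M23Rik (Uqcc2), an assembly factor of complex III, with 1477 reads against 1008, 1.47-fold (1.35 to 1.59) higher.

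The other 21 genes whose products are in mitochondria or act on them had a median log2 ratio of -0.29, with 7847 reads in MHC403 and 9259 in WT. None was at least 2-fold higher, against 26.1% of all measured entries. At least 2-fold lower were 3 (14.3%, against 2.43%), or 8 with median-of-ratios scaling. The lowest were 9330129D05Rik (Acad12), an acyl-CoA dehydrogenase family gene, with 89 reads against 331, 3.71-fold (2.93 to 4.74) lower, and 9030617O03Rik (Dglucy), D-glutamate cyclase, with 32 against 119, 3.71-fold (2.49 to 5.67) lower. Dglucy met the minimum through WT alone, so a deficit was built into its selection. The windows of Acad12 overlap those of its paralog Acad10, which had 41 against 163, so their reads may be shared. Brap, which starts 75 bases from Acad12 on the other strand, was higher, with 144 reads against 67. 1110002N22Rik (Tefm), the elongation factor of mitochondrial transcription, had 78 against 163. 0610009O20Rik (Dele1), which relays mitochondrial stress to the cytosol, had 246 against 484, 1.96-fold (1.68 to 2.30) lower, and its windows overlap the divergent lncRNA 1700086O06Rik with 79 against 122. 2310042D19Rik (Perm1), a muscle protein induced with mitochondrial biogenesis, had 623 against 1119 and was 1.79-fold (1.62 to 1.98) lower.

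Other members of this group differed less. 4933403F05Rik (Fam210a) had 240 reads against 348, a log2 ratio of -0.53. 2310028O11Rik (Micos10) and 2410015M20Rik (Micos13), subunits of the complex that shapes the cristae, had 1633 reads against 1743 and 648 against 792. 1810035L17Rik (Slirp), which stabilises mitochondrial mRNA, had 442 against 565, 1.28-fold (1.12 to 1.45) lower. 1110008L16Rik (Prorp), which cleaves mitochondrial tRNA precursors, had 101 against 116, and 1700034H14Rik (Timm21), of the inner membrane translocase, had 53 against 73. Cluh (1300001I01Rik), which binds mRNAs of mitochondrial proteins, had 850 against 922. The intervals of Prorp, Timm21, Cluh and Micos10 included 1. Above 1 were 1500032L24Rik (Smdt1), the essential regulator of the calcium uniporter, with 1450 against 1190, 1.22-fold (1.13 to 1.32) higher, and 1500011K16Rik (Mtln), a mitochondrial microprotein, with 446 against 346. Both fall below 1 with median-of-ratios scaling.

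Together the 41 mitochondrial genes had a median log2 ratio of -0.20, with 0 higher and 3 lower (7.32%) past 2-fold. The other 376 genes had a median of 0.55, with 90 higher (23.9%) and 14 lower (3.72%). Over all measured entries these shares were 26.1% and 2.43%. The interval lay wholly below 1 for 17 of the 41 and wholly above 1 for 7, where 10.3% and 63.2% of all measured entries did so. Over the same libraries the 10 cardiomyocyte markers summed to 40409 RPM (reads scaled to 1000000 listed reads) in MHC403 and 68750 in WT, with 3 of the 10 at least 2-fold lower and 0 higher. Myh6 and Myl2 (36100 reads against 86531) carry much of that difference, and 4 of the 10 had ratios above 1, among them Actn2 with 7860 against 5061 and Mybpc3 with 12340 against 11501. The skeletal muscle list summed to 1352 against 2507 RPM, most of it from Ckm (7066 reads against 12865). Of its 4 measured markers 3 (Myh1, Myh2 and Myh4) were at least 2-fold lower. Under the minimum, Tnnt3 (24 reads against 1) and Actn3 (18 against 15) were higher. The part of cell composition in the mitochondrial values was not tested. In whole hearts, fewer cells of a type and less RNA per cell cannot be told apart.

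The 8 genes of cilia and sperm tails had a median log2 ratio of -0.72, with 3 at least 2-fold lower (37.5%, against 2.43% of all). 1700040L02Rik (Cabcoco1; chromosome 10, 67893704 to 68004623), a ciliary calcium-binding protein, had 10 reads against 57 and was 5.69-fold (2.88 to 12.5) lower. 4732415M23Rik (Spata33; chromosome 8, 125736758 to 125745945), known from sperm as a calcineurin-binding protein, had 16 against 58 and was 3.62-fold (2.05 to 6.74) lower. Chmp1a, which starts 69 bases from Spata33 on the other strand, had 395 against 212 and was higher. 2900006K08Rik (Bbof1), a basal body protein, had 35 against 85, 2.42-fold (1.62 to 3.70) lower. The group also held 1110034A24Rik, which the table calls kintoun, a dynein assembly factor, with 1090 against 639, and 1700019E19Rik (Ift43), a subunit of the transport particle of cilia, with 166 against 97. Cabcoco1, Spata33 and Bbof1 had under 50 reads in MHC403 and met the minimum through WT alone, so a deficit was built into their selection, while the gene with the most reads in the group was higher. 1110034G24Rik (Shld1; chromosome 2, 132512618 to 132576791), a shieldin subunit that limits resection of DNA breaks and belongs to another group, had 39 against 138 and was 3.53-fold (2.46 to 5.18) lower.

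The actin group had the highest median, a log2 ratio of 1.0 over 8 genes. At least 2-fold higher were 4 (50%, against 26.1% of all measured entries). With median-of-ratios scaling 1 of the 8 was, against 10.9% of all. 2310014H01Rik (Ppp1r18; chromosome 17, 36002540 to 36012541), phostensin, an actin-binding targeting subunit of protein phosphatase 1, had 381 reads in MHC403 and 96 in WT. It was 3.98-fold (3.17 to 5.03) higher. 6720456B07Rik (Brk1), a subunit of the WAVE complex that starts branched actin, had 425 against 193, 2.21-fold (1.86 to 2.63) higher. 4831426I19Rik, nesprin-3, which ties the nucleus to intermediate filaments, had 57 against 24, 2.38-fold (1.45 to 4.01) higher. Nesprin-3 met the minimum through MHC403 alone, so an excess was built into its selection. 3110003A17Rik (Abracl) had 478 against 263, 1.82-fold (1.56 to 2.13) higher. Arpin (2610034B18Rik), an inhibitor of branched actin, had 46 against 54, and 6530418L21Rik (Inka2), an inhibitor of the kinase Pak4, had 102 against 116. Markers of some non-myocytes were higher too, beside this group and Ssc5d. The 8 fibroblast and matrix markers summed to 3225 RPM in MHC403 and 466 in WT, with 6 of 8 at least 2-fold higher. The 6 macrophage markers summed to 293 and 92.3, with 6 of 6 at least 2-fold higher. Endothelial markers summed to 466 and 367 with 0 of 6 past 2-fold. Smooth muscle and pericyte markers summed to 349 and 249, with 1 of the 4 measured, Acta2 (693 reads against 236), at least 2-fold higher. Of the others, Pdgfrb had 509 against 278, Myh11 166 against 161 and Rgs5 522 against 679. Erythroid markers summed to 238 and 111. Adipocyte markers summed to 545 and 438, nearly all from Fabp4 (2958 reads against 2387). The list for atrial myocytes summed to 16989 and 559, nearly all from Nppa (92851 reads against 3017). Its other markers, Myl4, Myl7 and Sln, were under the minimum. The part of these cells in the ratios of the RIKEN-named genes was not tested.

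Genes of lysosomes, endosomes and vesicle traffic had a median close to that of all measured entries but fewer members past 2-fold. The group had 25 members and a median log2 ratio of 0.52, and 3 (12%, against 26.1% of all) were at least 2-fold higher and 0 lower. 2400003C14Rik (Ist1), a regulator of ESCRT membrane scission, had 265 reads against 129, 2.06-fold (1.66 to 2.56) higher. 2400001E08Rik (Lamtor1) and 0910001L09Rik (Lamtor4), subunits of the Ragulator complex that anchors mTORC1 at lysosomes, had 692 against 487 and 375 against 333. 3 subunits of BORC, the complex that positions lysosomes, had 54 against 64 (2010012O05Rik, Borcs7), 91 against 65 (2310045N01Rik, Borcs8) and 118 against 78 (2310047M10Rik, Borcs6). The WASH complex, which nucleates actin on endosomes, was represented by E430025E21Rik (Washc5) with 190 against 106 and A230046K03Rik (Washc4) with 57 against 27. Washc4 met the minimum through MHC403 alone, so an excess was built into its selection. 9430023L20Rik (Atg101), of the autophagy initiation complex, had 179 against 92, 1.95-fold (1.51 to 2.54) higher. With median-of-ratios scaling none of the 25 was past 2-fold in either direction, where 10.9% of all measured entries were higher and 7.59% lower.

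Chromatin and transcription complexes (16 genes, median log2 ratio 0.53) and mRNA splicing, export and decay (14 genes, 0.56) had medians close to that of all measured entries. In these groups 3 (18.8%) and 1 (7.14%) genes were at least 2-fold higher, against 26.1% of all measured entries, and 0 were lower. The genes of 3 subunits of the NSL histone acetyltransferase complex had similar ratios: 1700081L11Rik (Kansl1) with 166 reads against 102, 2310037I24Rik (Kansl2) with 222 against 149, and 4632411B12Rik (Kansl3) with 326 against 195. 2810474O19Rik (Resf1), which acts in the silencing of retroelements, stood above the group with 234 against 60, 3.91-fold (2.93 to 5.28) higher. Of the nonsense-mediated decay factors, 1200011M11Rik (Smg8) had 51 against 49 while its partner Smg9 had 89 against 16. The intervals of the export factor 2500003M10Rik (Chtop; 441 against 253, 1.75-fold, 1.49 to 2.05) and of the spliceosomal gene 0610009D07Rik (Sf3b6; 83 against 63) differ in width because of their depth. The 11 DNA repair and telomere genes had a median of 0.42 with 3 higher (27.3%) and 1 lower (9.09%), against 26.1% and 2.43% of all. Median-of-ratios scaling left 1 of the 11 higher and 1 lower, against 10.9% and 7.59% of all measured entries. The 3 higher ones and the lower one, Shld1, each met the minimum through 1 library alone. The higher ones were 2610002J02Rik (Faap20), of the Fanconi anaemia core complex, with 51 against 17, 1110054O05Rik (Inip), of the single-strand binding complex SOSS, with 81 against 29, and 2310004N24Rik (Ten1), of the telomere-capping CST complex, with 76 against 32.

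In GENCODE vM21, 10 members contain a snoRNA gene on their own strand, and 6 of these are lncRNAs. They had 1236 reads in MHC403 and 343 in WT and a median log2 ratio of 1.67. At least 2-fold higher were 5 of 6 (83.3%, against 26.1% of all measured entries). With median-of-ratios scaling 5 of 6 were too, against 10.9% of all. The other 4 are protein coding, with 558 reads against 349, a median of 0.65 and 0 of 4 past 2-fold. The 45 lncRNA members without a snoRNA had a median of 0.49, with 14 higher (31.1%) and 2 lower (4.44%, against 2.43% of all). Of the 6 lncRNA carriers, 1110038B12Rik, Snhg5, Snhg17 and Snhg20 had under 50 reads in WT and met the minimum through MHC403 alone, so an excess was built into their selection. No test of a difference from the other lncRNAs was made.

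**Figure D5:**
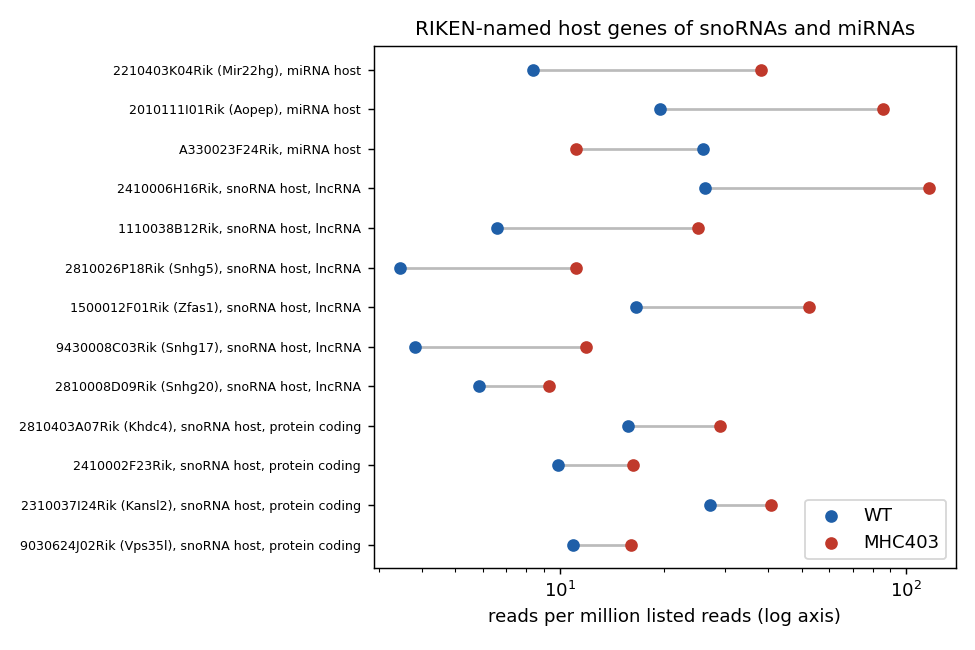
RPM (horizontal log axis) in WT (blue) and MHC403 (red) for RIKEN-named genes that contain snoRNAs and for the carriers of miR-22, of the miR-23b, miR-27b and miR-24 cluster and of miR-29b and miR-29c. The red point lies to the right in all except A330023F24Rik, and the lines are longest among the lncRNAs with snoRNAs, Mir22hg and Aopep.

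2410006H16Rik (chromosome 11, 62416379 to 62418308), which contains Snord49a, Snord49b and Snord65, had 636 reads in MHC403 and 144 in WT and was 4.43-fold (3.69 to 5.34) higher. 1110038B12Rik (chromosome 17, 35087181 to 35089416), with Snord52, had 137 against 36, 3.81-fold (2.63 to 5.67) higher. 1500012F01Rik (Zfas1; chromosome 2, 166888434 to 166891362), with Snord12, had 286 against 91, 3.15-fold (2.48 to 4.03) higher. It starts 82 bases from Znfx1 on the other strand and their windows overlap. 2810026P18Rik (Snhg5; chromosome 9, 88415891 to 88417725), with Snord50a and Snord50b, had 61 against 19, 3.22-fold (1.90 to 5.70) higher. 9430008C03Rik (Snhg17; chromosome 2, 158179436 to 158187258) had 65 against 21, 3.10-fold (1.87 to 5.34) higher. The sixth, 2810008D09Rik (Snhg20; chromosome 11, 116938097 to 116940269), had 51 against 32, 1.60-fold (1.01 to 2.57) higher. All 6 intervals lay above 1. GC boxes occurred in 8 of the 9 snoRNA carriers with a promoter sequence (88.9%), among them 2410006H16Rik and Zfas1 printed above. The share was 69.1% over all members with a promoter sequence and 71.1% over the 45 such lncRNA members, so GC boxes were common in the members generally. Measured lncRNAs that carry snoRNAs but have no RIKEN name did not share 1 direction: Gas5 had 131 reads against 52, Snhg12 74 against 41, Snhg3 64 against 62, and AA465934 232 against 494. The reads count the polyadenylated carrier and not the snoRNAs.

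Of the 24 members that contain a miRNA gene, 5 were at least 2-fold higher (20.8%, against 26.1% of all measured entries). Another 1 was lower (4.17%, against 2.43%), and their median log2 ratio was 0.57, equal to that of all measured entries. Mature sequences are given from RefSeq (GRCm38.p6) for the carriers with the highest ratios (Mir22hg and Aopep) and for the carrier with the lowest (A330023F24Rik), with the seed in capitals.
mmu-miR-22-5p: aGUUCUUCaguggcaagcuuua
mmu-miR-22-3p: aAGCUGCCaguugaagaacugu
mmu-miR-24-3p: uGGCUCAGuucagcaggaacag
mmu-miR-27b-3p: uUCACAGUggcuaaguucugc
mmu-miR-29b-3p: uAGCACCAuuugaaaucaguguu
mmu-miR-29c-3p: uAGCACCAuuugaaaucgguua
The miR-29b-3p and miR-29c-3p sequences share 1 seed, and the others have different ones. 2210403K04Rik (Mir22hg; chromosome 11, 75275041 to 75280192), an lncRNA whose transcript holds Mir22, had 208 reads in MHC403 and 46 in WT and was 4.53-fold (3.28 to 6.38) higher. Mir22hg met the minimum through MHC403 alone, so an excess was built into its selection. Aopep, whose values are given above, spans Mir23b, Mir27b and Mir24-1 (chromosome 13, 63066253 to 63403592). A330023F24Rik (chromosome 1, 196802569 to 196864102), an lncRNA with Mir29b-2 and Mir29c, went the other way, with 61 reads against 142, 2.32-fold (1.71 to 3.19) lower. An entry that starts 585 bases away on the other strand, C030002c11rik, had 53 against 31. Mature miRNAs were not measured in these polyA libraries, so the values describe the carrier transcripts.

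Of the other lncRNAs, E130317F20Rik had 99 reads against 32, 3.10-fold (2.06 to 4.78) higher, and the gene facing it, Ptbp1, a splicing regulator, had 452 against 177, with its start inside the E130317F20Rik entry. 4930539J05Rik had 419 against 147, 1500017E21Rik (Hectd2os) 148 against 36 and 4933439C10Rik 75 against 18. E130317F20Rik, Hectd2os and 4933439C10Rik met the minimum through MHC403 alone, so an excess was built into their selection. On the lower side, 2900097C17Rik (Norad), which binds Pumilio proteins, had 627 against 913, and 9330158H04Rik, whose windows overlap the muscarinic receptor gene Chrm2, had 80 against 115. 1700020I14Rik (Oip5os1) and 6720401G13Rik (Firre) had 190 against 163 and 132 against 111. All 51 lncRNA members had a median log2 ratio of 0.61, with 19 (37.3%, against 26.1% of all measured entries) higher and 2 (3.92%, against 2.43%) lower. Median-of-ratios scaling gave 12 higher and 6 lower of the 51, where 10.9% and 7.59% of all measured entries were so. The 20 measured lncRNA entries without a RIKEN name had a median of 0.49, with 6 higher and 1 lower.

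Whether a gene has since been named was also set against its ratio. The 75 protein-coding genes that are still RIKEN-named had a median log2 ratio of 0.61, with 20 higher (26.7%) and 1 lower (1.33%) past 2-fold. The 274 that have been renamed had a median of 0.42, with 45 higher (16.4%) and 13 lower (4.74%). Over all measured entries the shares were 26.1% and 2.43%. The mitochondrial groups contain renamed genes only. For lncRNAs the medians were 0.58 over 36 still RIKEN-named and 0.70 over 15 renamed. By the table's own descriptions the median was 0.50 for functional or homology descriptions, 0.47 for hypothetical proteins, 0.49 for uncharacterized proteins and 0.38 for cDNA clone titles. The share at least 2-fold lower was 0.820% (1 of 122), 5.06% (9 of 178), 16.7% (4 of 24) and 3.23% (3 of 93).

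Several properties that the choice of genes did not use were tabulated. Most members, 291, had 1 annotated start, with a median log2 ratio of 0.46, while 87 had 2 (median 0.53) and 39 had 3 or more (0.54). The authors' deposited start-site score, a whole number with no stated formula, was above 0 for 125 members (30.0%, against 36.2% of all measured entries). The highest scores were 94 for 2210404J11Rik (Ermard; 201 reads against 191), 73 for Mhrt, 71 for 1110007C09Rik (Card19; 909 against 459), 63 for Ppp1r18, 61 for Cluh and 51 for 6230400D17Rik (231 against 260). Ermard overlaps other entries with like reads, among them 9030025P20Rik with 186 against 187. Card19 was 1.98-fold (1.77 to 2.23) higher. A high score therefore came with ratios near 1 (Ermard, Cluh, 6230400D17Rik) as well as with ratios near or past 2-fold. The median log2 ratio of members with a score above 0 was 0.42, against 0.49 for those with a score of 0.

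Ratios also varied with depth. With the members divided by total reads into 4 equal parts, from lowest to highest, their medians were 0.66, 0.48, 0.44 and 0.31. Over all measured entries, divided at the same read totals, they were 0.78, 0.57, 0.54 and 0.49. The minimum of 50 reads acts on the higher library, so in the lowest part a gene could pass through an excess in either library alone. There 33.3% of members were at least 2-fold higher and 5.71% lower, against 16.3% and 1.92% in the highest part. The part of the minimum in these medians was not tested. The windows of 85 members (20.4%, against 14.9% of all measured entries) overlapped those of another entry, and their median was 0.42, against 0.49 for the other 332. Of 399 members with transcripts in GENCODE, 50 shared over 10% of their 36-base words with another gene. These included E030024N20Rik, with 1208 reads against 412 and 66.7% of words shared, and 2900092E17Rik (Pagr1a), with 162 against 116 and 92.2% shared. Their values may include reads of those genes.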

How the data were processed

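Polyadenylated RNA of 2 pooled mouse heart libraries was sequenced at 5′ ends; per the labels' protocols it was Trizol-extracted, not fragmented, size-selected and linearly amplified. Per the submitters' processing notes, TopHat 1.0.14 and the mm9 build were used; how reads were counted, with or without strand or multiple matches, is not given in the sources. Per the file headers, the authors deposited raw read counts for each library, normalized reads (RPM, which recomputed to the listed total within 4.94e-06), a fold (ratio MHC403 over WT), a p-value and a start-site score for each gene. The deposited fold and the deposited p-value were not used. All count columns belonged to the 2 libraries.

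Counts were scaled to library totals, with no pseudocount, and exact Clopper-Pearson 95% intervals were computed in Python 3.11.15 with scipy 1.17.1; interval coverage was tested on simulated data. Amplified reads carry no molecular identifiers, so intervals omit amplification, pooling and animal-to-animal variation. Alternatives were median-of-ratios and TMM scaling (edgeR 4.0.16), totals without the mitochondrial chromosome, other read minimums, removal of overlapping entries and 1 entry per name. Named genes were the 12 higher and 12 lower with the interval bound farthest from 1, the 10 with the most reads, the 6 with the highest score, up to 4 in each class of the descriptions and in each role by the same bound, and genes at the edge of the minimum; the other members named with reads only illustrate a group and were chosen with their values in view. Roles were set by hand from present-day symbols, since the reference table at hand has no descriptions. Names, promoters and miRNAs came from RefSeq (GRCm38.p6, 409 of 417 matched), and snoRNA and miRNA genes and 36-base words from GENCODE vM21. The members and lists were chosen with earlier results of these data known. The lymphocyte marker list is not reported here.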

Additional observations from a re-analysis of the deposited data

How the results depend on the processing

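The counts of RIKEN-named genes past 2-fold moved with the scaling and the read minimum. Library totals gave 90 higher (21.6%, against 26.1% of all measured entries) and 17 lower (4.08%, against 2.43%). Median-of-ratios scaling gave 40 (9.59%, against 10.9%) and 43 (10.3%, against 7.59%). TMM scaling gave 40 (9.59%, against 10.9%) and 43 (10.3%, against 7.55%). Totals without the mitochondrial chromosome gave 51 (12.2%, against 16.1%) and 23 (5.52%, against 4.21%). The median log2 ratio of 0.48 became -0.0676 with median-of-ratios scaling, -0.0654 with TMM scaling and 0.19 without the mitochondrial chromosome. These settings lower every log2 ratio by 0.55, 0.55 and 0.29, so they move all genes alike. With a minimum of 200 reads 31 genes were higher and 3 lower (21.8% and 2.11%, against 24.7% and 2.50% of all entries). With no minimum beyond 1 read in each library the counts were 232 and 53, and with the whole counting interval past 2-fold 41 and 9. At the minimum of 20 reads below, the shares were 22.9% and 3.79%, against 27.5% and 2.90% of all entries. Shares over all entries are not given for the remaining settings. The minimums changed which genes entered, while the interval setting changed the criterion over the same 417 genes. A minimum of 20 reads (133 of 581 higher, 22 lower), leaving out overlapping entries (75 and 15), summing entries of 1 name before applying the minimum (89 and 17 of 416 names, 0610010B08Rik being added) and, chosen after seeing the data, leaving out genes that share over 10% of their 36-base words (82 and 14) kept counts in proportion or within 1.5 times, with medians of 0.47 to 0.49. Shifts of this size cannot reverse the direction of a gene at least 2-fold from 1, so unchanged directions there are no check. No paired analysis was possible because each genotype has 1 pooled library, and for the same reason no replicate could be left out. Depth limits most of these genes: at 50 reads in each library ratios between 0.664 and 1.51 cannot be told from 1.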
